A study of Mus musculus with 9 samples.

Results

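The Krüppel-like factors (KLF) are zinc-finger transcription factors that bind GC-rich and CACCC-type DNA, and 9 of their genes were followed here: Klf2, Klf3, Klf4, Klf6, Klf7, Klf9, Klf10, Klf11 and Klf13. They were picked by gene name from a table of 49315 genes, and all 9 were counted deeply enough to be among the 15963 genes tested. The RNA came from RAW 264.7 cells, an established macrophage line of the mouse from which RANKL, the cytokine of osteoclast formation, can make osteoclast-like cells. In the pamidronate + GGOH group, 140 µM pamidronate and 5.25 µM geranylgeraniol (GGOH) were given together. The pamidronate group had 140 µM pamidronate alone, and the control had neither. Each group had 3 libraries. Per the growth notes RANKL (20 ng/ml) followed 24 h of growth, the drugs were given at a total of 48 h, and the cells were pelleted after 24 h more. These notes give RANKL for every culture, while the controls are labelled as untreated, so an effect of RANKL cannot be told apart from that of pamidronate where treated and control libraries are compared. The cells are 1 established line, and only the control titles speak of biological replicates, so p-values measure the spread between these libraries, which may be technical.

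The 9 proteins share a DNA-binding domain of zinc fingers at the carboxyl end and differ in the rest. Klf2, Klf4, Klf6 and Klf7 belong to the branch known mainly for activating domains. Klf3 binds the co-repressor CtBP, and Klf9, Klf10, Klf11 and Klf13 bind the co-repressor Sin3A. In macrophages, Klf2 is known as a brake on inflammatory activation and Klf4 as a factor of alternative activation. Pamidronate is a nitrogen-containing bisphosphonate that blocks farnesyl diphosphate synthase, and GGOH can be converted into the geranylgeranyl lipid that anchors proteins in membranes. Loss of that lipid is known to raise KLF2 and KLF4 in endothelial cells, where statins have this effect.

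Library totals ran from 14356069 to 18957968 counts. Macrophage markers were present, with 12 of 12 kept and a summed level of 7003.4 to 10208.7 CPM (counts scaled to TMM-adjusted library sizes) in the pamidronate + GGOH libraries, 4875.6 to 6881.4 CPM with pamidronate and 16433.2 to 21194.2 CPM in the control. Of them, 11 fell and 0 rose with pamidronate against the control (32.9% of all genes tested were called lower), and 8 rose and 1 fell with pamidronate + GGOH against pamidronate (25.2% and 23.6% of all genes). The osteoclast list, with 8 of 11 markers kept, summed to 387.3 to 419.4, 396.8 to 547 and 348.8 to 384.1 CPM in the pamidronate + GGOH, pamidronate and control libraries, and with pamidronate against the control 4 of the 8 rose and 2 fell (36.2% and 32.9% of all genes). Ctsk, the collagen-degrading protease cathepsin K, rose by 2.81 on the log2 scale, Itgb3 by 2.39, Atp6v0d2 by 2.22 and Dcstamp by 1.14. The 2 that fell were Tnfrsf11a at -1.33 and Nfatc1 at -0.66. Acp5 at 0.48 and Mmp9 at -0.62 were not called. These 8 markers were named after their values were seen. Calcr, the calcitonin receptor, had 0 counts in every pamidronate and every control library. Endothelial markers summed to 29.8 to 59.2, 14.6 to 16.1 and 8.12 to 10.8 CPM, and lymphocyte, fibroblast, epithelial and neutrophil lists stayed at or below 11.7 CPM in every library. The largest part of the endothelial sum with pamidronate + GGOH was Tek, at a mean of 28.45, 4.91 and 0.133 CPM in the same order of groups. Vwf was at 11.2, 8.07 and 5.58 CPM. Egfl7 was lower with pamidronate, at 1.37 CPM against 3.34 CPM in the control. Mitochondrially encoded RNA took 5.43 to 6.31% of counts with pamidronate + GGOH, 3.71 to 5.19% with pamidronate and 10.4 to 10.8% in the control, and the nuclear RNA Malat1 took 2.39 to 2.82%, 4.53 to 4.99% and 1.35 to 1.66%. Gm26917, a predicted gene, took 10.04 to 11.7%, 12.1 to 12.9% and 7.17 to 8.41%. These 3 shares moved with the groups, and their part in the KLF results was not tested beyond removing all 3 kinds of reads together, which left the members called with pamidronate against the control at 3 higher and 4 lower (69.2% of all genes tested were called, 36.2% higher and 32.9% lower). Removing them brought the members called lower with pamidronate + GGOH against pamidronate to 2, against 4 with them (23.6% of all genes were called lower). The 2 lost were Klf6 at -0.25 (adjusted p = 0.0512) against -0.29 and Klf7 at -0.26 (adjusted p = 0.0712) against -0.30. Fewer cells of a type and less RNA per cell cannot be told apart in such bulk libraries. On the first principal component, 68.9% of the variance, pamidronate + GGOH replicate 3 lay at -11.5, against 29.8 and 18.9 for the other libraries of its group. Its values are left in throughout, and log2 fold changes without it are given for Klf2, Klf6, Mef2c, Fhl3 and Tgfb1 where they are described.

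With pamidronate against the control, the family split: Klf6, Klf11 and Klf9 rose, and Klf2, Klf13, Klf4 and Klf3 fell. Klf2 changed most, by a log2 fold change of -2.44 ± 0.21 (SE), while the other members lay between -1.0 and 0.89. GGOH beside pamidronate raised 1 member, Klf2, by 1.94 ± 0.21 on the log2 scale, where 25.2% of all genes were called higher. Klf3, Klf4, Klf11 and Klf13, which had all changed with pamidronate, were not called between the pamidronate + GGOH and the pamidronate libraries.

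**Figure D1:**
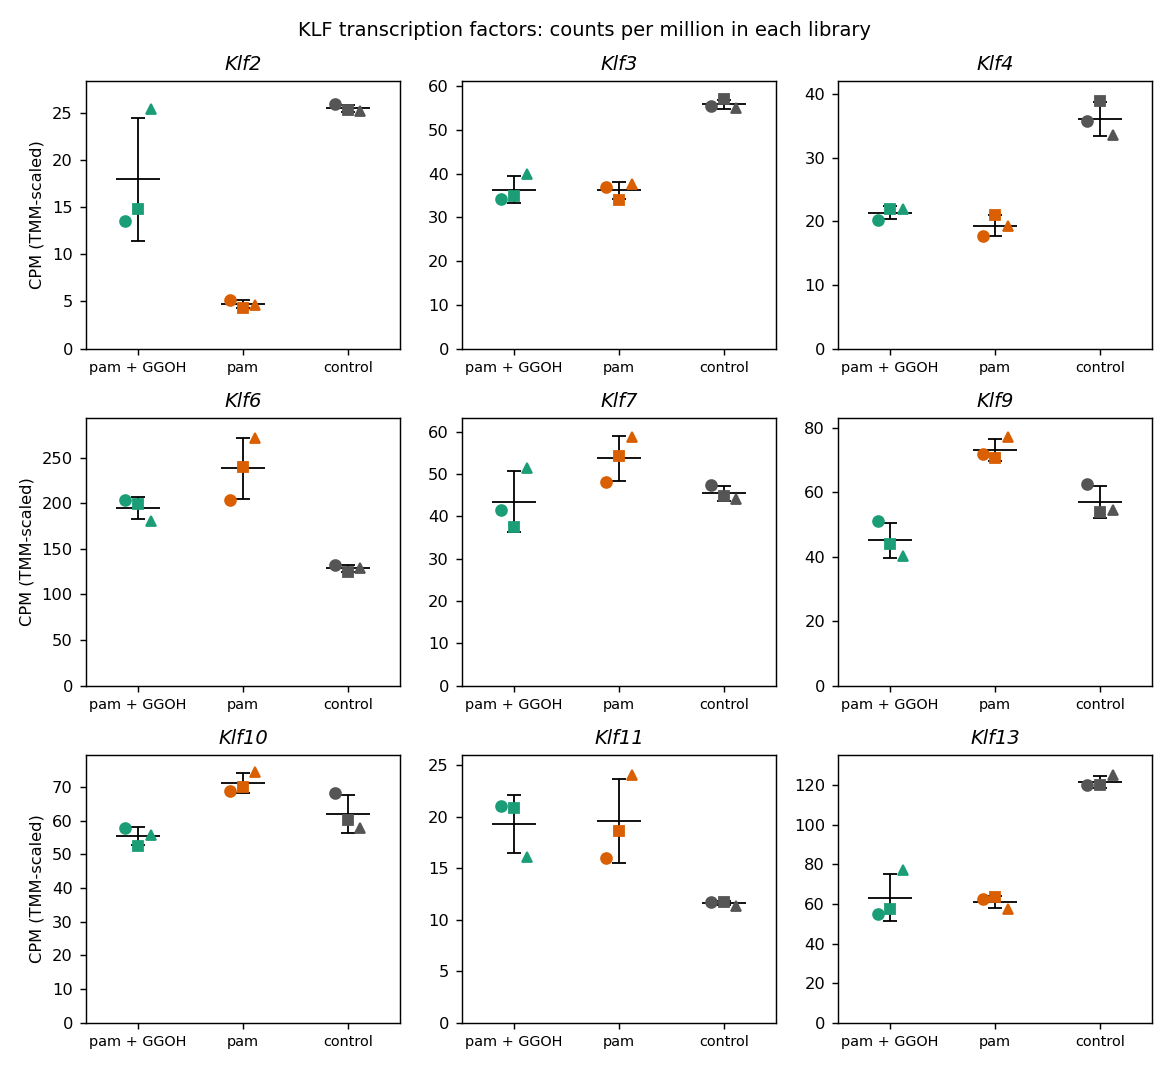
CPM of each KLF gene in each library, from 0, by group (pam is pamidronate). Circles, squares and triangles are replicates 1, 2 and 3, the long bar is the mean and the whiskers are the SD (n = 3). Klf2 lay at 4.3 to 5.13 CPM in the pamidronate libraries and at 25.2 to 26.0 CPM in the control, with pamidronate + GGOH replicate 3 at the control level.

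Klf2 (ENSMUSG00000055148, GRCm38 chromosome 8, 72319033 to 72321656, plus strand), which keeps endothelial cells, T cells and monocytes quiescent, was at 13.6, 14.8 and 25.5 CPM in the pamidronate + GGOH libraries, 5.13, 4.3 and 4.65 CPM in the pamidronate libraries and 26.0, 25.4 and 25.2 CPM in the control libraries. All pamidronate libraries lay below all others, and pamidronate + GGOH replicate 3 lay within the control range while the other libraries of its group lay below it. The counts behind these levels were 239, 238 and 485 with pamidronate + GGOH, 84, 68 and 75 with pamidronate, and 445, 453 and 408 in the control. Pamidronate lowered Klf2 by 2.44 ± 0.21 (SE, 95% interval -2.90 to -1.98) on the log2 scale, with an adjusted p = 4.56e-07 (edgeR's quasi-likelihood test, Benjamini-Hochberg over all genes tested). With GGOH added it was 1.94 ± 0.21 higher than with pamidronate alone (95% interval 1.47 to 2.40, adjusted p = 1.26e-05), and 1.64 higher without pamidronate + GGOH replicate 3 (adjusted p = 2.31e-07). Against the control, pamidronate + GGOH differed by -0.50 ± 0.19 (95% interval -0.92 to -0.09, adjusted p = 0.041), with overlapping groups. That call held in 7 of 19 alternatives: it was lost on leaving out any single library but pamidronate + GGOH replicate 3 (adjusted p 0.0519 to 0.148), and without replicate 3 the difference was -0.86 (adjusted p = 3.98e-05).

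The promoters of Klf2 and of 3 members with other patterns are printed to show what surrounds their starts, from 250 bases before to 50 after the RefSeq start (RefSeq, GRCm38.p6), 5′ to 3′ on the gene's strand. Capitals mark motif matches: the GC box GGGCGG and the CACCC box on either strand (CCGCCC and GGGTG on the minus strand), the CCAAT box (ATTGG on the minus strand) and the MEF2 consensus. The windows are chr8:72318812-72319111 (plus) for Klf2, chr4:55532426-55532725 (minus) for Klf4, chr13:5861239-5861538 (plus) for Klf6 and chr12:24651121-24651420 (plus) for Klf11.
Klf2: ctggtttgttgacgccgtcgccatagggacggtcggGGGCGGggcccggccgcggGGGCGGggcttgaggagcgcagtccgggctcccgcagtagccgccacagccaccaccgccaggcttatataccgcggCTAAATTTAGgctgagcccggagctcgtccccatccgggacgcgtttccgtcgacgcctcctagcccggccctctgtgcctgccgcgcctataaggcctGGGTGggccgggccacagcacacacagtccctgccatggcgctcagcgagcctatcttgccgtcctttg
Klf4: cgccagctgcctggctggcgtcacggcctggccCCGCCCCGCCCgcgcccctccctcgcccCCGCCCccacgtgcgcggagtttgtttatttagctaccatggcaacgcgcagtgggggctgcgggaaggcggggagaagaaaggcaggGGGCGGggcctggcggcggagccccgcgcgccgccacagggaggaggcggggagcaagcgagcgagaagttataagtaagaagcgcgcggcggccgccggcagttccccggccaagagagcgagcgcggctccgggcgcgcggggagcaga
Klf6: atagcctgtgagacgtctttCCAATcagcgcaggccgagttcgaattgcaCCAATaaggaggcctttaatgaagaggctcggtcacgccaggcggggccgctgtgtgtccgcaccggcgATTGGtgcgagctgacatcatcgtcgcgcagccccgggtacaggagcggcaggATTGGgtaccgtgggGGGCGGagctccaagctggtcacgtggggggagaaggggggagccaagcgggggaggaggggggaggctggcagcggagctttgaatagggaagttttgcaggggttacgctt
Klf11: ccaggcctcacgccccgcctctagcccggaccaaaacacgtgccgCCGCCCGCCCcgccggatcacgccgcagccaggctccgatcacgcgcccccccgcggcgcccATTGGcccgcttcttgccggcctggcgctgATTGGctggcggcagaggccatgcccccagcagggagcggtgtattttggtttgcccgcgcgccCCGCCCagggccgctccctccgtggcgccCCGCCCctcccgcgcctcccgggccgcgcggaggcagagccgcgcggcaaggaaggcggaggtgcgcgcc

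The Klf2 window held 2 GC boxes at -214 to -209 and -195 to -190 from the start, a CACCC box on the minus strand at -19 to -15, and a palindromic MEF2 match at -118 to -109. Among 8 members with an entry (all but Klf10), 1 (Klf2) matched the MEF2 consensus, which 3.19% of 32851 RefSeq promoters of this length hold. The RefSeq start of Klf7 lay 893 bases downstream of the first base of the gene as counted, so its window does not cover that base. For Klf3 the distance was 133 bases. GC boxes were in 7 of 8 members against 35.7% of all promoters, CACCC boxes in 5 of 8 against 57.5%, and CCAAT boxes in 4 of 8 (Klf6, Klf9, Klf11 and Klf13) against 37.4%. A TATAAA box, in 13.6% of all promoters, and the CArG box bound by serum response factor, in 1.63%, were in 0 of 8. The members' windows were 58.3 to 77.7% G and C, against a median of 52.7% over all promoters, and GC-rich windows hold such boxes more often by composition alone. MEF2 factors are known regulators of Klf2, and the levels of Mef2a, Mef2c and Mef2d are given further down. A match of letters is a description, not a bound site.

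Klf4 (ENSMUSG00000003032, chromosome 4, 55527143 to 55532466, minus strand), a factor of monocyte differentiation and of the alternative macrophage state, was at 20.21, 21.99 and 21.92 CPM with pamidronate + GGOH, 17.7, 20.9 and 19.3 CPM with pamidronate and 35.8, 39.0 and 33.6 CPM in the control. Both treated groups lay below every control library and overlapped each other. The log2 fold change was -0.90 ± 0.10 for pamidronate against the control (adjusted p = 2.49e-06) and -0.76 ± 0.10 for pamidronate + GGOH against the control (adjusted p = 4.64e-05). GGOH against pamidronate alone gave 0.15 ± 0.11 (95% interval -0.08 to 0.37, adjusted p = 0.267).

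Klf6 (ENSMUSG00000000078, chromosome 13, 5861489 to 5870393, plus strand), a factor of injury and inflammatory responses, was at 203.8, 199.2 and 180.8 CPM with pamidronate + GGOH, 203.8, 239.5 and 271.1 CPM with pamidronate and 132, 125 and 129 CPM in the control. All treated libraries lay above all control libraries, and the pamidronate libraries reached down to the highest pamidronate + GGOH library. Pamidronate raised it by 0.89 ± 0.10 on the log2 scale (adjusted p = 2.16e-06), and pamidronate + GGOH raised it by 0.60 ± 0.10 against the control (adjusted p = 2.39e-04). Between the treated groups it was -0.29 ± 0.10 with GGOH (adjusted p = 0.0259), a call that held in 9 of 19 alternatives (adjusted p up to 0.14) and was lost on leaving out any single library but control replicate 1 or pamidronate replicate 1. Without pamidronate + GGOH replicate 3 it was -0.20 (adjusted p = 0.131).

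Klf7 (ENSMUSG00000025959, chromosome 1, 64029447 to 64122282, minus strand), known from neurons and fat cells, was at 41.5, 37.5 and 51.4 CPM with pamidronate + GGOH, 48.2, 54.3 and 58.7 CPM with pamidronate and 47.3, 44.7 and 44.2 CPM in the control. The pamidronate libraries lay just above the control libraries. Pamidronate + GGOH replicates 1 and 2 lay below both of those groups, and replicate 3 lay within the pamidronate range. Pamidronate against the control gave 0.24 ± 0.11 (95% interval -0.00 to 0.49, adjusted p = 0.0709), not called, although it was called with upper-quartile factors at 0.44 and without pamidronate replicate 1 at 0.31. It was also called with a stricter filter (at least 1 CPM in at least 3 libraries) at 0.27 and with the 2 groups alone at 0.22. With GGOH it differed from pamidronate alone by -0.30 ± 0.11 (adjusted p = 0.039), a call kept in 8 of 19 alternatives and lost on leaving out any single library but control replicate 1, pamidronate replicate 1 or pamidronate + GGOH replicate 3. Pamidronate + GGOH against the control gave -0.06 ± 0.11 (95% interval -0.31 to 0.18, adjusted p = 0.673).

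Klf3 (ENSMUSG00000029178, chromosome 5, 64803388 to 64832901, plus strand), the CtBP-binding repressor, was at 34.2, 34.8 and 39.9 CPM with pamidronate + GGOH, 36.9, 34.0 and 37.6 CPM with pamidronate and 55.4, 57.0 and 55.1 CPM in the control. The treated groups overlapped and both lay below the control. Pamidronate lowered it, with a log2 fold change of -0.63 ± 0.09 (adjusted p = 2.21e-05), and pamidronate + GGOH gave -0.62 ± 0.09 against the control (adjusted p = 7.40e-05). Between the treated groups the difference was 0.00 ± 0.09 (95% interval -0.19 to 0.20, adjusted p = 0.972).

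Klf9 (ENSMUSG00000033863, chromosome 19, 23141226 to 23166911, plus strand), a target of glucocorticoid and thyroid hormone receptors, was at 50.9, 44.0 and 40.1 CPM with pamidronate + GGOH, 71.7, 70.5 and 77.1 CPM with pamidronate and 62.6, 53.9 and 54.4 CPM in the control. The 3 groups did not overlap in CPM: pamidronate + GGOH was lowest and pamidronate highest. Klf9 rose by 0.36 ± 0.10 on the log2 scale with pamidronate (adjusted p = 0.005), a call lost without control replicate 2 (0.26, adjusted p = 0.0681). With GGOH it was -0.70 ± 0.10 against pamidronate alone (adjusted p = 5.86e-05) and -0.34 ± 0.10 against the control (adjusted p = 0.0116), the last of which became -0.14 with upper-quartile factors (adjusted p = 0.306). Klf9 was the member called higher with pamidronate and lower than the control once GGOH was present, a pattern of 1.06% of all genes tested. On the length-scaled levels given further down, its pamidronate + GGOH and control libraries overlapped.

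Klf10 (ENSMUSG00000037465, chromosome 15, 38294413 to 38300707, minus strand), first described as an early gene of transforming growth factor beta in bone cells, was at 57.8, 52.5 and 55.9 CPM with pamidronate + GGOH, 68.9, 70.0 and 74.5 CPM with pamidronate and 68.3, 60.1 and 57.7 CPM in the control. Pamidronate + GGOH libraries lay below all pamidronate libraries and overlapped the control by 1 library. It fell with GGOH, with a log2 fold change of -0.36 ± 0.09 against pamidronate (adjusted p = 0.00351). Pamidronate against the control gave 0.20 ± 0.09 (95% interval 0.01 to 0.39, adjusted p = 0.0573), not called, though called without control replicate 1 (0.27, adjusted p = 0.0183). It was also called with upper-quartile factors (0.39, adjusted p = 0.00137) and with the stricter filter (0.23, adjusted p = 0.0296). Pamidronate + GGOH against the control gave -0.16 ± 0.09 (95% interval -0.35 to 0.02, adjusted p = 0.132).

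Klf11 (ENSMUSG00000020653, chromosome 12, 24651371 to 24662774, plus strand), the closest relative of Klf10, was at 21.0, 20.9 and 16.1 CPM with pamidronate + GGOH, 16.0, 18.7 and 24.1 CPM with pamidronate and 11.7, 11.7 and 11.4 CPM in the control. Both treated groups lay above the control and overlapped each other. The log2 fold change against the control was 0.75 ± 0.15 with pamidronate (adjusted p = 5.08e-04) and 0.73 ± 0.15 with pamidronate + GGOH (adjusted p = 0.00119). Between the treated groups it was -0.02 ± 0.15 (95% interval -0.34 to 0.30, adjusted p = 0.919).

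Klf13 (ENSMUSG00000052040, chromosome 7, 63886351 to 63938915, minus strand), a Sin3A-binding factor known for the chemokine RANTES in human T cells, was at 55.1, 57.4 and 77.0 CPM with pamidronate + GGOH, 62.3, 63.4 and 57.4 CPM with pamidronate and 120.1, 120.0 and 125 CPM in the control. Every treated library lay below every control library. The log2 fold change was -1.0 ± 0.11 with pamidronate (adjusted p = 1.84e-06) and -0.94 ± 0.11 with pamidronate + GGOH against the control (adjusted p = 1.51e-05). Between the treated groups it was 0.05 ± 0.11 (95% interval -0.19 to 0.29, adjusted p = 0.731), with pamidronate + GGOH replicate 3 above the pamidronate range.

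Counted over the family, pamidronate against the control called 3 members higher and 4 lower and left 2 uncalled, where 69.2% of all genes tested were called, 36.2% higher and 32.9% lower. Both the 3 and the 4 of 9 are near those shares. With upper-quartile factors, which move the median of all genes by 0.19 in this comparison and by 0.20 in pamidronate + GGOH against the control, the split was 5 higher and 4 lower. All 9 members had groups that did not overlap in CPM, which held for 73.4% of all genes. The median log2 fold change of the members was 0.20, against 0.085 for all genes.

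Pamidronate + GGOH against pamidronate gave 1 member higher and 4 lower (Klf6, Klf7, Klf9 and Klf10), and 4 were not called. Of all genes tested, 48.8% were called, 25.2% higher and 23.6% lower. Klf9 and Klf10 were called in every alternative run, whereas Klf6 and Klf7 were not. The groups of 3 members did not overlap, against 59.6% of all genes, and the member median was -0.02 (all genes 0.003).

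Pamidronate + GGOH against the control gave 2 members higher and 5 lower, where 52.4% of all genes were called, 26.3% higher and 26.0% lower. With upper-quartile factors the split was 2 higher and 3 lower, since Klf2 and Klf9 no longer passed. The groups of 6 members did not overlap, as for 58.2% of all genes, and the median was -0.34 (all genes 0.025). The pattern of Klf3, Klf4 and Klf13 (lower with pamidronate, not called with GGOH against pamidronate, lower with both against the control) was that of 8.77% of all genes, and that of Klf2 (lower, then higher, then lower) of 11.3%. In 5 of the 9 members (Klf2, Klf3, Klf6, Klf11 and Klf13), pamidronate + GGOH replicate 3 was the library of its group nearest the control mean. The share of all genes with this trait was not taken, so it cannot be called particular to the members. Over all genes tested, that library was also the nearest of its group to the control on the first principal component. The comparisons share the pamidronate or the control libraries, so their fold changes are set side by side and not correlated.

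**Figure D2:**
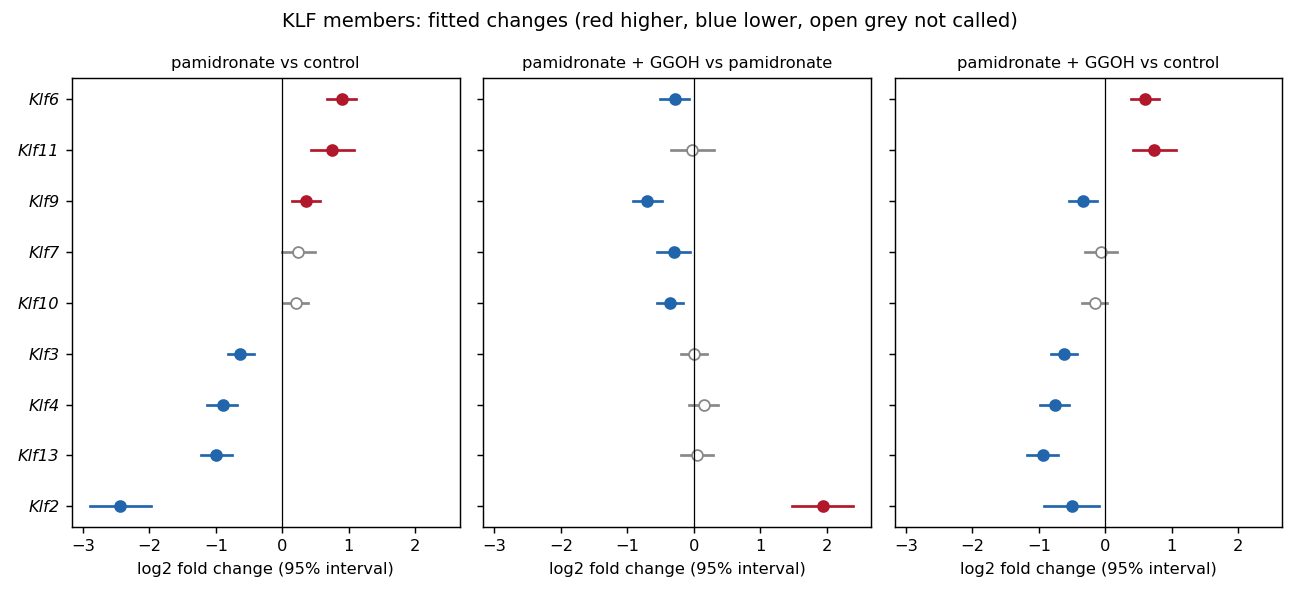
Fitted log2 fold change of each member with its 95% interval in the 3 comparisons. Filled red and blue are genes called higher and lower at an adjusted p under 0.05, and open grey are not called. Klf2 stands at -2.44 with pamidronate and at 1.94 with GGOH against pamidronate, and Klf3, Klf4, Klf11 and Klf13 sit at or near 0 in the panel of GGOH against pamidronate.

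Levels of different genes were compared per length in TPM (length-scaled counts with the same sum in each library). Klf6 was highest in each group, at 131.5 ± 7.58, 139.9 ± 17.3 and 69.0 ± 2.90 TPM (SD, n = 3 each) with pamidronate + GGOH, with pamidronate and in the control. Klf10 was next, at 51.8 ± 1.54, 58.0 ± 2.06 and 46.0 ± 1.55 TPM. In the control the order went on with Klf9, Klf13, Klf2, Klf4, Klf7, Klf3 and Klf11, of which Klf9 and Klf13 overlapped. In the pamidronate libraries Klf2 was last, at 6.32 ± 0.721 TPM, below Klf3 at 7.99 ± 0.540, and Klf10 and Klf9, and Klf7 and Klf4, overlapped. With pamidronate + GGOH Klf2 stood between Klf9 and Klf13, at 27.8 ± 10.3 TPM, against 31.3 ± 1.21 TPM in the control, and its range overlapped those of Klf9 and Klf13. The 9 genes summed to 331.7 ± 6.81, 331.6 ± 22.4 and 279.3 ± 6.03 TPM, of which Klf6 was 39.7%, 42.1% and 24.7%, and Klf2 was 8.33%, 1.92% and 11.2%. In CPM the sums were 483.2 to 508.5 with pamidronate + GGOH, 530.7 to 624.5 with pamidronate and 535.5 to 559.2 in the control. The order of the groups in this sum thus depended on the scale, with pamidronate + GGOH below the control in CPM.

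**Figure D3:**
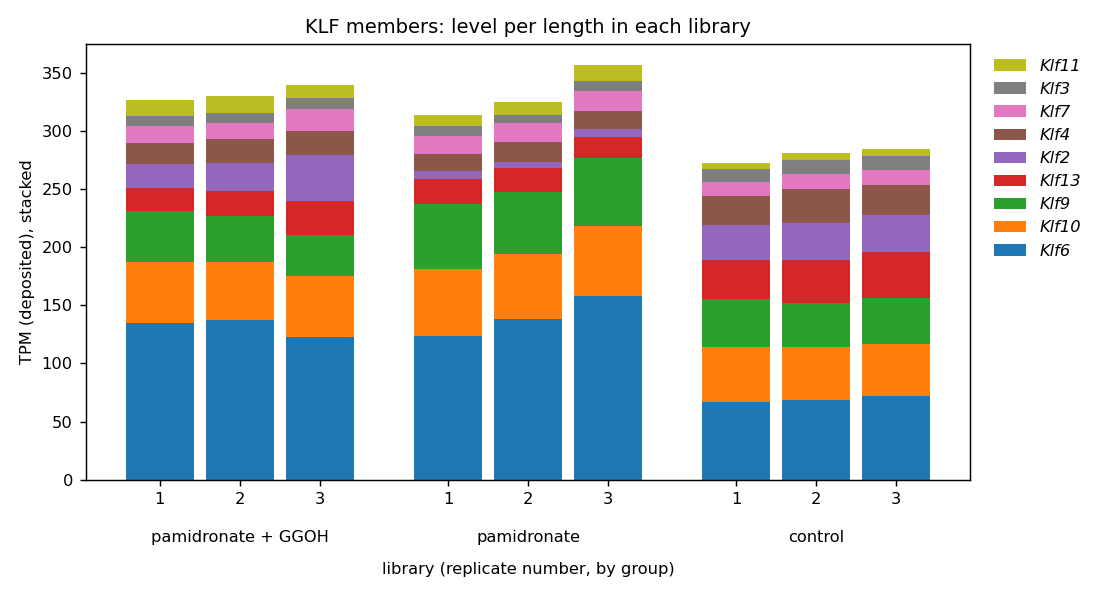
TPM of the 9 KLF genes stacked in each library, with Klf6 at the base. The Klf6 segment is 123 to 158 TPM in the treated libraries and 66.6 to 72.2 TPM in the control, and the Klf2 segment is thinnest in the pamidronate libraries.

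TPM and the fitted fold changes are on different scales. Over the members, the log2 TPM ratio lay 0.13 above the fitted log2 fold change for pamidronate against the control, 0.20 above it for pamidronate + GGOH against pamidronate and 0.33 above it for pamidronate + GGOH against the control. On TPM, Klf7 and Klf10 were therefore higher with pamidronate + GGOH than in the control while their fitted log2 fold changes were -0.06 and -0.16, and neither was called. Klf9, called lower in that comparison at a fitted -0.34, was at 39.27 TPM against 39.4 TPM in the control. Its groups overlapped in TPM, so its place below the control depended on the scale. Against pamidronate alone, the log2 TPM ratios were 0.20 for Klf3 and 0.35 for Klf4, whose groups did not overlap in TPM. Klf11 was at 0.18, against a fitted -0.02. Klf6 and Klf7 were at -0.09 and -0.11, with overlapping groups.

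The genes nearest each member in pattern were found by the root mean square difference of log2 CPM, centred on each gene's mean over the 9 libraries. B4galnt1, a ganglioside synthase, was nearest Klf2 at 0.115, followed by Arap3 at 0.134 and Oxsm at 0.157, and the nearest member to Klf2 was Klf13 at 0.792. Adam17, the protease that sheds TNF, was nearest Klf13 at 0.046, and Sars, the seryl-tRNA synthetase, was nearest Klf10 at 0.0418. Rnf121 was nearest Klf6 at 0.0782 and Kbtbd8 nearest Klf11 at 0.0981, while Klf6 and Klf11 differed from each other by 0.138. Ifngr2, a chain of the interferon gamma receptor, was nearest Klf3 at 0.0501, Sub1 nearest Klf4 at 0.0621, Mak16 nearest Klf9 at 0.0773 and Unk nearest Klf7 at 0.08.

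Of the other KLF genes, 8 were in the table and 2 were kept, Klf8 and Klf16. Klf16, a Sin3A-binding relative of Klf9 and Klf13, was at 12.2 ± 0.249 CPM with pamidronate + GGOH, 9.71 ± 0.852 CPM with pamidronate and 20.4 ± 0.565 CPM in the control (SD, n = 3 each), a log2 fold change of -1.07 ± 0.12 with pamidronate (adjusted p = 1.27e-06). With GGOH it was 0.33 ± 0.12 against pamidronate (adjusted p = 0.0324), a call held in 14 of 18 alternatives. Against the control, pamidronate + GGOH gave -0.74 ± 0.11 (adjusted p = 1.06e-04), so Klf16 had the same pattern of calls as Klf2. Klf8, a CtBP-binding relative of Klf3, was at 11.7 ± 1.49, 7.73 ± 1.33 and 11.7 ± 0.0893 CPM, -0.60 ± 0.15 with pamidronate (adjusted p = 0.00306) and 0.60 ± 0.15 with GGOH against pamidronate (adjusted p = 0.00486). The remaining 6 (Klf1, Klf5, Klf12, Klf14, Klf15 and Klf17) were not kept and had at most 14 counts in any library. No gene named Klf18 was among the 49315 genes.

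The Sp factors bind the same GC boxes, and 5 of the 9 were kept. Each fold change given for a gene of this and the following lists was called unless stated. With pamidronate against the control 2 rose and 0 fell (4 and 0 with upper-quartile factors), beside 36.2% and 32.9% of all genes. Sp1, the broadly expressed activator, was at 398.1 ± 19.8 CPM with pamidronate and 203.7 ± 11.4 CPM in the control, a log2 fold change of 0.97 ± 0.09. Sp4 rose by 2.09 ± 0.18, to 54.7 ± 9.3 CPM with pamidronate against 12.9 ± 1.11 CPM in the control. Against pamidronate alone, 0 rose and 4 fell with pamidronate + GGOH, beside 25.2% and 23.6% of all genes. Sp1 fell by 0.96 and Sp4 by 0.91 on the log2 scale. Against the control, pamidronate + GGOH had 1 higher and 2 lower (1 and 1 with upper-quartile factors), beside 26.3% and 26.0% of all genes.

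Klf2 and Klf4 are known in endothelial cells to be driven by the kinase cascade of Map3k2 or Map3k3, Map2k5 and Mapk7 (Erk5) onto MEF2 factors, with class IIa histone deacetylases as MEF2 inhibitors and Foxo1 as a further input to Klf2 in T cells. Of 12 genes in this list, all kept, 6 rose and 2 fell with pamidronate, with a median of 0.23, beside 36.2% of all genes higher and 32.9% lower. The 2 that fell were MEF2 factors: Mef2c was at 59.9 ± 5.38 CPM with pamidronate and 390.1 ± 40.5 CPM in the control, a log2 fold change of -2.70 ± 0.17, and Mef2a at 111.3 ± 8.68 and 377 ± 18.5 CPM, -1.76 ± 0.10. Mef2d, another MEF2 gene of the list, rose: it was at 393.1 ± 19.7 CPM with pamidronate and 311.6 ± 23.7 CPM in the control, 0.34 ± 0.09 on the log2 scale (adjusted p = 0.00404), a call lost without control replicate 3. Of the kinase genes, Map3k2 rose by 1.53 ± 0.12, Mapk7 by 1.03 ± 0.12 and Map3k3 by 0.33 (a call lost with no filter), and Map2k5 at 0.07 was not called (adjusted p = 0.542). Mef2d, Map3k3 and Map2k5 were named after their values were seen. Addition of GGOH to pamidronate raised 2, Mef2c by 1.52 ± 0.16 and Mef2a by 0.81 ± 0.10, and lowered 8, among them Map3k2 with -0.98 ± 0.11, Foxo3 with -0.77 ± 0.09 and Mef2d with -0.58 ± 0.09, which was at 262.1 ± 16.1 CPM with pamidronate + GGOH. All genes had 25.2% higher and 23.6% lower in that comparison. Mef2c reached 130.8, 165 and 217.9 CPM in the pamidronate + GGOH libraries, with replicate 3 highest as for Klf2, and without that library its log2 fold change against pamidronate was 1.35. Against the control, pamidronate + GGOH had 2 higher and 5 lower (3 and 3 with upper-quartile factors), beside 26.3% and 26.0% of all genes. Mef2c was at -1.19 ± 0.16 (-1.42 without replicate 3), Mef2a at -0.95 ± 0.10 and Mef2d at -0.25, the last a call held in 11 of 18 alternatives.

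Partners and ubiquitin ligases of the KLF proteins made a list of 12, all kept. With pamidronate 1 rose and 8 fell (2 and 7 with upper-quartile factors), with a median of -0.58, where 36.2% of all genes were higher and 32.9% lower. Fhl3, a LIM protein that binds Klf3 as a co-repressor, was at 35.0 CPM with pamidronate and 186.6 CPM in the control, a log2 fold change of -2.41 ± 0.18. Kat2b (PCAF), an acetyltransferase, changed by -2.19 ± 0.15, the deacetylase Hdac1 by -1.07 ± 0.15 and Ctbp1, the co-repressor of Klf3, by -1.03 ± 0.10. When GGOH was added to pamidronate, 6 rose and 4 fell, beside 25.2% and 23.6% of all genes. Kat2b rose by 1.48 ± 0.15, Fhl3 by 1.38 ± 0.17 and Hdac1 by 0.86 ± 0.15. Without pamidronate + GGOH replicate 3, Fhl3 was at 1.16. Against the control, pamidronate + GGOH had 0 higher and 7 lower (2 and 4 with upper-quartile factors), beside 26.3% and 26.0% of all genes. The largest change was in Wwp1, a ubiquitin ligase of Klf2, at -1.11 ± 0.09.

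Genes known as targets of a KLF protein in some cell type numbered 13, of which 10 were kept. With pamidronate 3 rose and 6 fell, with a median of -0.76, where 69.2% of all genes were called, 36.2% higher and 32.9% lower. S1pr1, the lymphocyte egress receptor that Klf2 drives in mouse T cells, was at 3.18, 2.34 and 2.97 CPM with pamidronate and 32.4, 37.8 and 25.2 CPM in the control, a log2 fold change of -3.49 ± 0.26. With pamidronate + GGOH it was at 7.27, 13.7 and 13.7 CPM, 2.03 ± 0.27 above pamidronate and -1.46 ± 0.23 against the control. Nos3, a low gene of the list at 1.41 CPM with pamidronate and 1.07 CPM in the control, was not called there (0.39 ± 0.36). With GGOH it was at 0.517 CPM, -1.44 ± 0.39 against pamidronate, where Klf2 rose. Eng, the TGF-beta co-receptor that KLF6 activates in endothelial cells, changed by -2.09 ± 0.14 with pamidronate and by 1.19 ± 0.14 with GGOH against pamidronate. Arg1, an alternative activation gene that Klf4 favours in macrophages, was at 7.74 CPM with pamidronate and 1.18 CPM in the control, a log2 fold change of 2.69 ± 0.24, the opposite direction to Klf4. Cdkn1a, the cell cycle inhibitor p21, was 1.13 ± 0.11 higher with pamidronate and changed by -1.24 ± 0.11 with GGOH against pamidronate. In the pamidronate + GGOH libraries 4 of the targets rose and 4 fell against pamidronate, beside 25.2% and 23.6% of all genes. Against the control 1 rose and 4 fell (1 and 3 with upper-quartile factors), beside 26.3% and 26.0% of all genes.

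Klf10 and Klf11 are early genes of TGF-beta signalling, so a list of 12 of its genes, all kept, was read out, with Smad7 and Tgfbr1 also among the targets. With pamidronate 5 rose and 5 fell (6 and 4 with upper-quartile factors, 4 and 5 with RLE factors). Of all genes 69.2% were called, 36.2% higher and 32.9% lower. The receptor gene Tgfbr2 was at 120.7 CPM with pamidronate and 514 CPM in the control (log2 fold change -2.09 ± 0.10), the ligand gene Tgfb1 changed by -1.92 ± 0.18, and the inhibitors Smad7 and Smurf1 rose by 1.50 ± 0.23 and 1.37 ± 0.09. With pamidronate + GGOH against pamidronate 2 rose and 7 fell, beside 25.2% and 23.6% of all genes. Tgfb1 rose by 0.98 ± 0.18 and Tgfbr2 by 0.94 ± 0.10, while Smad7 changed by -1.39 ± 0.23 and Smurf1 by -0.90 ± 0.09. Tgfb1 was at 0.78 without pamidronate + GGOH replicate 3. Against the control 2 were higher and 7 lower with pamidronate + GGOH (2 and 6 with upper-quartile factors), beside 26.3% and 26.0% of all genes.

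**Figure D4:**
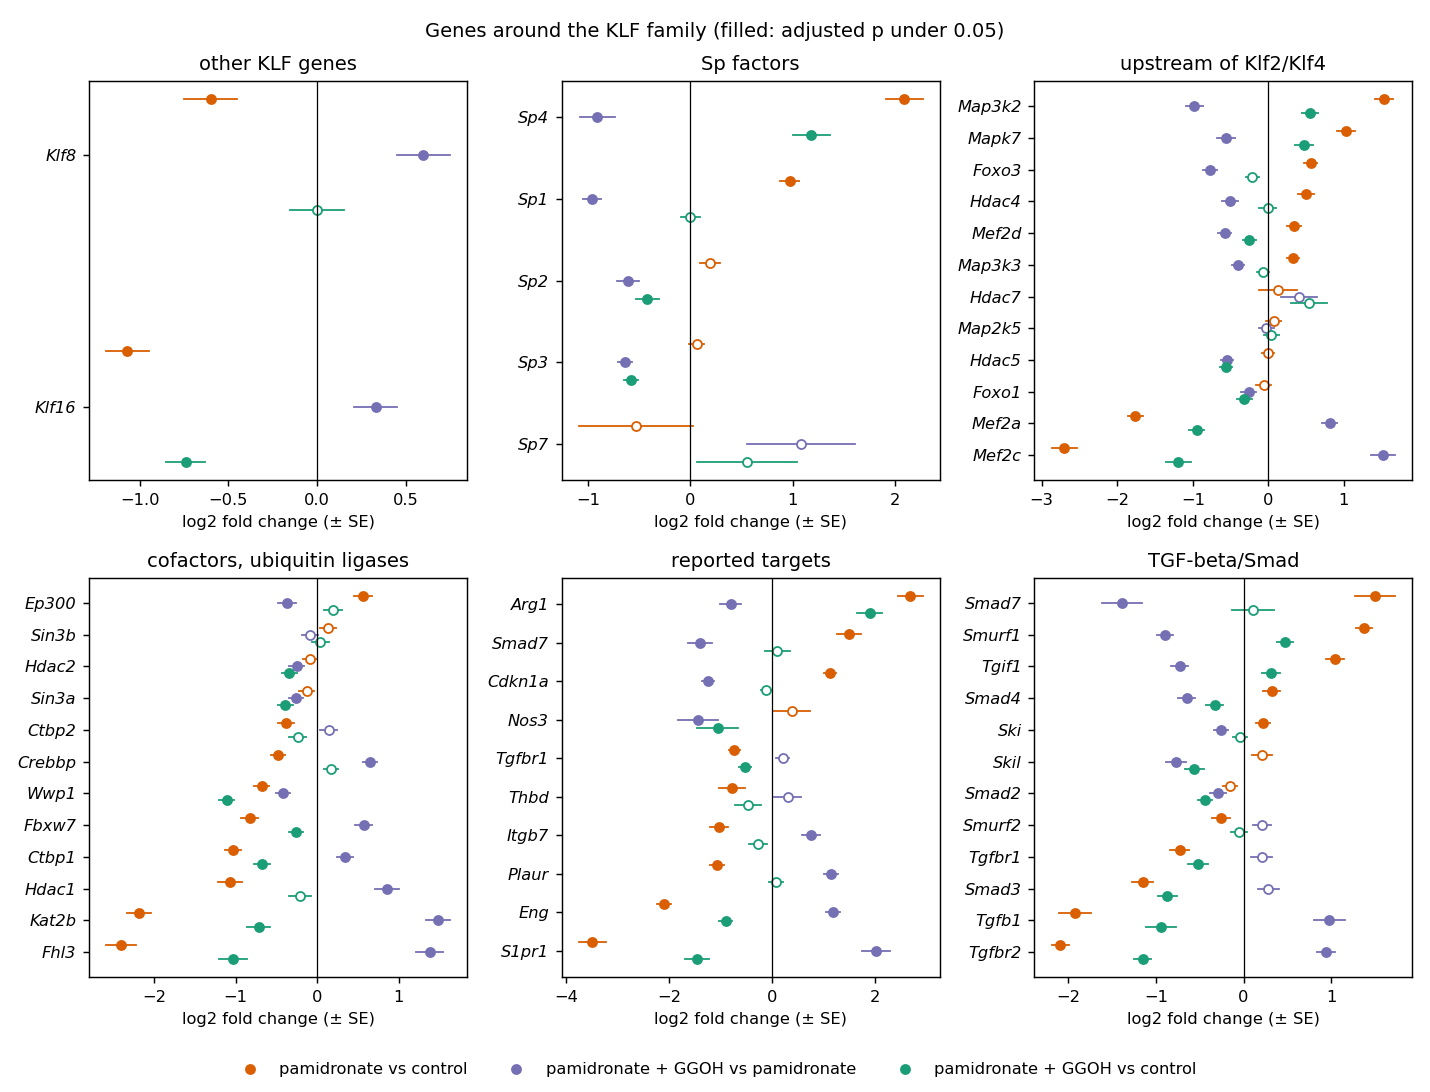
Fitted log2 fold change (± SE) of the listed genes around the KLF family in the 3 comparisons, with filled points called at an adjusted p under 0.05. Mef2a and Mef2c lie to the left with pamidronate against the control and to the right with GGOH against pamidronate, and Map3k2 and Mapk7 lie on the opposite sides.

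Genes of overlapping position could share reads with members, since no source used here says whether the counting used strand. Klf3 shared 404 exon bases with Gm20033 on the opposite strand, which had at most 7 counts in a library against at least 538 for Klf3. Klf7 shared 3196 exon bases with Gm26649 on the opposite strand, which had 0 counts in every library. Whether reads in those bases were added to Klf7 or left out of it cannot be told from the counts.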

How the data were processed

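RNA of 9 libraries was sequenced after ribosomal depletion from 300 ng of total RNA each, per the labels' protocols. The authors deposited raw counts per gene (whole numbers, identical in the table and the per-library files) and TPM values, which equal counts over exon length scaled to a fixed sum. Per the submitters' processing notes, Trimmomatic 0.36 and DESeq were used, and the build was GRCm38. No aligner, counter or strandedness is given in the sources used here. A percentage tag in the names of the pamidronate + GGOH libraries is not explained by the labels.

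Libraries were grouped by the labelled treatment. Genes were filtered with filterByExpr, scaled with TMM and tested with edgeR 4.0.16 (quasi-likelihood, robust, R 4.3.3) in 1 model of 3 group means, with Benjamini-Hochberg adjustment over all 15963 genes kept, and called at an adjusted p under 0.05. The SE is the size of the log2 fold change divided by the root of F, and intervals are at 95% (6 residual degrees of freedom plus the fitted prior). CPM uses TMM-scaled sizes. Every library pair within a group differed by more than counting noise (chi-square per degree of freedom at least 4.00). The test was also run on simulated counts in which few genes changed, as many up as down. That setting cannot check the scaling where most genes change.

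The KLF members, the gene lists and the tests were chosen with earlier results of these data known. From each list up to 4 called genes with the largest change per comparison and at least 1 CPM in the higher group were named, not all of them. The osteoclast markers, Mef2d, Map3k3 and Map2k5 were named outside this rule. Endog was dropped from the target list, after its values were seen, because it had been entered in error for endoglin (Eng), which the list also holds. For a symbol with more than 1 identifier, the row with most counts was taken. Alternatives tried were upper-quartile and RLE factors, no filter, at least 1 CPM in at least 3 libraries, the 2 groups alone, a replicate block, each library left out, DESeq2 1.42.0, limma-voom 3.58.1 and an adjusted p under 0.01. One further planned gene list is not reported here. A fit without mitochondrial, Malat1 and Gm26917 reads was added after seeing the data.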

Additional observations from a re-analysis of the deposited data

How the results depend on the processing

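Of the members' fold changes under the alternatives, 458 kept their direction and side of the threshold, 36 lost a call, 7 gained one and 12 changed sign, none of them a called value. With pamidronate against the control, the members called higher were 5 with upper-quartile factors and 5 with the stricter filter. With pamidronate + GGOH against pamidronate, the members called lower were 2 with no filter, 2 without mitochondrial, Malat1 and Gm26917 reads and 2 at an adjusted p under 0.01, and 2 to 4 when single libraries were left out. The calls lost with no filter and without those reads were Klf6 at -0.24 and -0.25 and Klf7 at -0.25 and -0.26, against -0.29 and -0.30 as reported and at the stricter threshold. With pamidronate + GGOH against the control, the members called lower were 3 with upper-quartile factors and 3 at an adjusted p under 0.01, and 2600 genes were called lower with upper-quartile factors, against 4157 as reported. The cause was not tested, except that upper-quartile factors move the median of all genes. Between pamidronate + GGOH and pamidronate, Klf11 ran from -0.15 to 0.15 when single libraries were left out and changed sign to 0.02 with no filter, 0.02 without mitochondrial, Malat1 and Gm26917 reads, 0.02 without control replicate 2 or 3, 0.15 without pamidronate replicate 3 and 0.14 without pamidronate + GGOH replicate 3; Klf3, at -0.04 to 0.09 over left-out libraries, changed to -0.04 without pamidronate replicate 2 and -0.03 without pamidronate + GGOH replicate 3; and Klf13, at -0.07 to 0.19, changed to -0.07 without the last. Between pamidronate + GGOH and the control, Klf7, at -0.21 to 0.03 over left-out libraries, changed sign to 0.14 with upper-quartile factors and 0.03 without pamidronate + GGOH replicate 2, and Klf10 to 0.04 with upper-quartile factors.

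Replicate numbers are not stated to pair cultures, and the 9 same-numbered pairs correlated at -0.224 to 0.204 in their deviations, 2 of them over 0.1. The replicate block called 10980, 7622 and 8275 genes in the comparisons of pamidronate with the control, pamidronate + GGOH with pamidronate and pamidronate + GGOH with the control, against 11042, 7784 and 8359 without it. The members called under the block were 3 higher and 4 lower, 1 and 4, and 2 and 5, as reported. Depth limited Klf2 most, with 68 counts in its lowest library.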
